A study of Populus x canadensis with 12 samples.

Results

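Leaf transcript levels were compared between hybrid 89 and hybrid 85 over all 12 libraries of the series, 6 from each hybrid. The libraries were taken by the hybrid number in the column names, which matched the genotype labels. Both hybrids came from a cross of a Populus deltoides female, L155-079, with a Populus nigra male, 71077-2-308, so they are full siblings of the hybrid species Populus x canadensis, and no parent is among the samples. Rooted cuttings were grown in a greenhouse, and each library held leaf RNA of a single plant. Hybrid 89 and hybrid 85 each gave 2 plants at each of 3 stages: normal watering (C, control), then moderate (D1) and severe (D2) water deficit. Watering had been withheld for 8 or 13 days, and which of these belongs to which stage is not stated. Every plant has a clone number of its own, and the labels do not say how clones of a hybrid relate. The p-values therefore speak for these 2 hybrids only. Within stages and for stage dependence they measure the spread between plants of a group. In the fit over all stages the spread also takes in changes of the hybrid difference between stages. Leaf water content, harvest time and plant age of each plant were not among the labels used here.

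Poplars are outcrossing trees with much variation between the 2 copies of each chromosome. Siblings of one cross therefore inherit different combinations of parental alleles, and genes that lie close together are inherited together more often than distant ones. Such siblings can differ in the level of a transcript at all times, or in how it answers a lack of water.

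Levels are in RPKM, that is, reads scaled to gene length and to library size. The table names genes by ID only, and no annotation was used here, so no gene function is stated and few IDs are printed. Chromosome numbers are read from the IDs. For the same reason leaf cell markers and the planned gene lists could not be looked up. Library totals recovered from the values were 2348388 to 6138710 reads in hybrid 89 and 2259634 to 10509089 reads in hybrid 85.

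In D1, plants of the same hybrid resembled each other more than they did plants of the other hybrid, while in C and D2 the ranges overlapped. Across genes, log2(RPKM + 1) of a pair of D1 plants correlated at Pearson's r = 0.949 and 0.961 within the hybrids, and 0.849 to 0.893 between them. In C the r was 0.925 and 0.956 within the hybrids and 0.911 to 0.941 between them. There, replicate 1 of hybrid 85 correlated at 0.941 and 0.931 with the plants of hybrid 89, and at 0.925 with replicate 2 of its own hybrid. In D2, replicate 2 of hybrid 89 correlated at 0.919 and 0.921 with the plants of hybrid 85, and at 0.904 with replicate 1 of its own hybrid. Replicate 1 of hybrid 89 in D2 correlated at 0.837 and 0.847 with the plants of hybrid 85 and thus stood apart. Many of the counts that use D2 are also given with this plant left out. Others, such as those by chromosome number and by stretch, are given with all plants only. In leaf tissue as a whole, fewer cells of a type and less RNA per cell cannot be told apart. Over all genes, stage held 60.4% of the sum of squares, hybrid 10.1%, the interaction of hybrid with stage 12.6%, and plants within groups 16.9%. Per degree of freedom these were 30.2%, 10.1%, 6.29% and 2.82%.

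With stage as a covariate, 709 of 24117 genes tested (2.94%) differed between the hybrids (limma, adjusted p below 0.05). Of these, 235 (0.974% of the genes tested) were higher and 474 (1.97%) lower in hybrid 89. The median size of the called differences was 1.46 on the log2(RPKM + 1) scale, against 0.28 over all genes tested. All 6 plants of hybrid 89 lay beyond all 6 of hybrid 85 in 247 of the called genes. Over all genes tested this held for 321 (1.33%), of which 89 (0.369%) were higher and 232 (0.962%) lower in hybrid 89. Lower calls outnumbered higher ones also with quantile normalization, at 431 against 290, and with median-ratio scaling, at 429 against 286. The count was 352 and 342 when a D1 plant of hybrid 89 was left out (replicates 1 and 2 in turn), and 339 and 366 when a D1 plant of hybrid 85 was. It was 448 and 464 when replicate 1 in C of hybrid 89 or of hybrid 85 was missing, 469 in the absence of replicate 2 of hybrid 85 at D2, and 700 in that of replicate 1 of hybrid 89 at D2.

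A smaller set of differences did not rest on any single plant. In every one of 12 fits that each left out 1 plant, 271 genes were called, 89 of them higher and 182 lower in hybrid 89. Their median difference was 1.90, and it was 1.58 in C, 2.07 in D1 and 1.82 in D2. In 164 of the 271 genes the plants of the hybrids did not overlap. These genes are part of the 709, so their sizes describe them and give no further test.

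The largest rises in hybrid 89, among called genes with a mean of at least 5 RPKM and no overlap of the hybrids, belonged to genes with almost no reads in hybrid 85. Potri.016G092500.1 (chromosome number 16, recovered coding length 315 bp) had 28.4 RPKM in its lowest plant of hybrid 89, a median of 74.0 and a highest value of 127.1 RPKM. In hybrid 85 its lowest and median values were 0 and its highest 0.992 RPKM. The plants of hybrid 85 held 3 reads of this gene together, and those of hybrid 89 held 566. The difference was 5.79 ± 0.32 on the log2(RPKM + 1) scale (SE, limma adjusted p = 2.08e-06), and the stages gave 5.89 in C, 6.65 in D1 and 4.83 in D2.

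Potri.010G155500.1 (chromosome number 10, 297 bp) varied less among plants of hybrid 89, with 25.8 RPKM in the lowest, a median of 32.1 and 51.9 RPKM in the highest. A single read of it was found over all 6 plants of hybrid 85. Its difference was 5.05 ± 0.22 (SE, limma adjusted p = 2.06e-07), with 4.56 in C, 5.46 in D1 and 5.13 in D2. Both genes were higher in all 6 plants of hybrid 89 than in any plant of hybrid 85, as the rule that picked them requires. For neither of them was a dependence of the difference on stage called (limma F test, adjusted p = 0.207 and 0.41).

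The largest falls were taken by the same rule, and its demand of no overlap fixes their sign in all 3 stages. Potri.T100200.1 (no chromosome number, 213 bp) was at 0 RPKM in 4 of 6 plants of hybrid 89, with a highest value of 4.84 RPKM. In hybrid 85 it had 18.7 RPKM in the lowest plant, a median of 70.6 and 295.1 RPKM in the highest. Its difference was -5.59 ± 0.48 (SE, limma adjusted p = 5.83e-05). In hybrid 85 the D1 plants had 295.1 and 96.8 RPKM, the C plants 147.9 and 44.3, and the D2 plants 18.7 and 32.3.

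Potri.015G112300.1 (chromosome number 15, 795 bp) lay between 0.96 and 2.14 RPKM in hybrid 89, with a median of 1.24 RPKM. In hybrid 85 the range was 24.7 to 150.2 RPKM and the median 66.6 RPKM. Its difference was -4.88 ± 0.33 (SE, limma adjusted p = 1.3e-05), with -3.86 in C, -6.01 in D1 and -4.77 in D2. It was at 24.7 and 53.5 RPKM in C of hybrid 85 and at 124.1 and 150.2 RPKM in D1, while no plant of hybrid 89 passed 2.14 RPKM. The plants of the hybrids did not overlap in either gene, again by the rule that picked them.

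**Figure D1:**
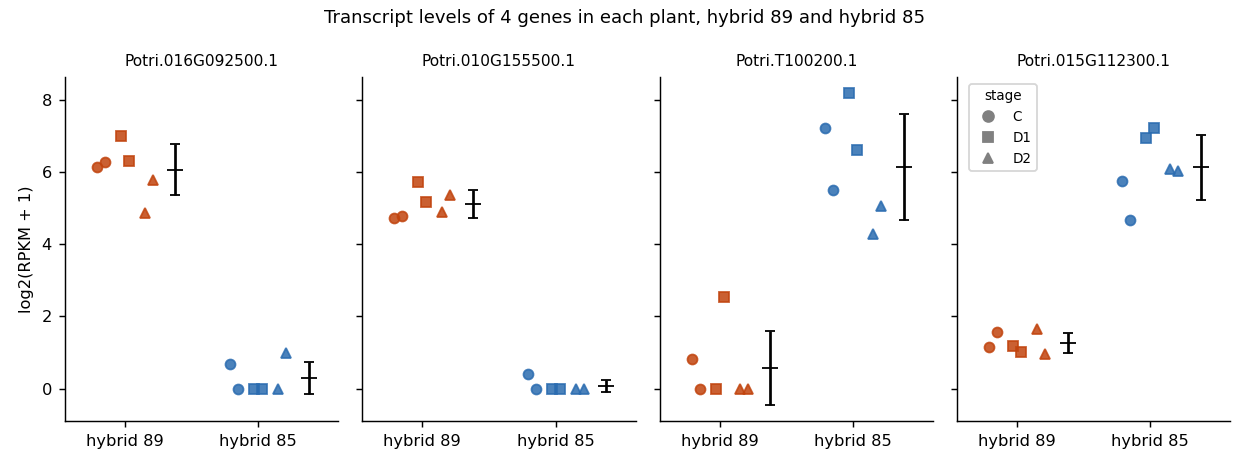
Levels of the 2 largest rises and the 2 largest falls in hybrid 89, as log2(RPKM + 1) on the vertical axis, for each plant of hybrid 89 (left) and hybrid 85 (right). Marker shape gives the stage, and the bars are mean ± SD over 6 plants. In each panel all plants of one hybrid lie above all plants of the other, as the rule for these genes requires.

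These 4 genes lead the called genes with a mean of at least 5 RPKM and no overlap of the hybrids. Among these, from the third to the tenth rank, the rises ran from 4.42 to 3.27 and the falls from -3.33 to -2.95 on the log2 scale. Of the 10 largest rises, 7 had fewer than 10 reads over all plants of hybrid 85, and of the 10 largest falls, 3 had fewer than 10 reads over all plants of hybrid 89. The other 7 falls had 14 to 374 reads over the plants of hybrid 89. Among the 10 falls, 5 had no chromosome number in the ID, and among the 10 rises 1 did. Over all 24117 genes tested, 724 had no such number, and 62 of these (8.56%) were among the 709 called. A dependence of the difference on stage was called in 2 of the 10 rises and in 0 of the 10 falls (limma F test, adjusted p below 0.05).

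Over the whole table, 5 genes had at least 10 reads in every plant of hybrid 89 and at most 3 reads over all plants of hybrid 85, and 3 genes showed the reverse. The first group averaged 9.91 to 72.6 RPKM in hybrid 89, and the other 4.03 to 10.3 RPKM in hybrid 85. All 8 were called, but genes picked by such reads are almost bound to be, so the calls give no further test.

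Abundant transcripts were also among the differences, though few of them. Of 233 genes that averaged at least 500 RPKM over both hybrids, 2 were higher and 2 lower in hybrid 89, or 1.72%. The clearest of these (chromosome number 8, 453 bp) averaged 1279 ± 806 RPKM in hybrid 89 and 324.5 ± 119 RPKM in hybrid 85 (SD, n = 6 each), with no overlap. Its difference was 1.83 ± 0.34 (SE, limma adjusted p = 0.0133), and 1.77 in C, 2.49 in D1 and 1.22 in D2. Genes under 5 RPKM were called in 3.07%, those of 5 to 50 RPKM in 2.82% and those of 50 to 500 RPKM in 3.17%. The share called decreased with coding length, with 3.99% among genes of 96 to 657 bp, 3.04% at 660 to 1107 bp, 2.48% at 1110 to 1674 bp and 2.24% at 1677 to 16233 bp.

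More genes were called between the hybrids under drought than with water. Within C, 144 genes (0.597%) differed, 58 (0.24%) of them higher and 86 (0.357%) lower in hybrid 89 (limma, 2 plants against 2, adjusted p below 0.05, spread shared over all 6 groups). Within D1 the count was 1809 genes (7.5%), with 964 (4%) higher and 845 (3.5%) lower. Within D2 it was 1315 (5.45%), with 694 (2.88%) higher and 621 (2.57%) lower. The median difference of all genes was -0.19 in C, 0.11 in D1 and 0.00 in D2, so directions are to be read against these shifts. With quantile normalization, which moved these medians to -0.01, 0.01 and 0.00, higher and lower calls were 87 and 76 in C, 934 and 1133 in D1, and 471 and 488 in D2. With median-ratio scaling they were 74 and 70, 830 and 998, and 600 and 736, so the more frequent direction within a stage was set by the scaling.

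These counts rested on single plants to a large degree. Pairs of counts here leave out replicate 1 and then replicate 2. The C count was 28 and 23 when C plants of hybrid 89 were left out, 88 and 35 for C plants of hybrid 85, 92 and 94 for D1 plants of hybrid 89, and 95 for replicate 2 of hybrid 85 at D1. The D1 count was 356 and 660 when D1 plants of hybrid 89 were left out, and 248 and 667 for D1 plants of hybrid 85. The D2 count was 268 and 4068 when D2 plants of hybrid 89 were left out, and 335 and 70 for D2 plants of hybrid 85. In that last fit the C count was 99, so D2 did not then exceed C. The D2 count was also 819 and 822 when C plants of hybrid 89 were left out, 843 and 845 for its D1 plants, and 769 and 770 for D1 plants of hybrid 85, which enter it only through the shared spread and the filter. Over the 12 fits that each left out 1 plant, 14 genes were called every time in C, 197 in D1 and 54 in D2.

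**Figure D2:**
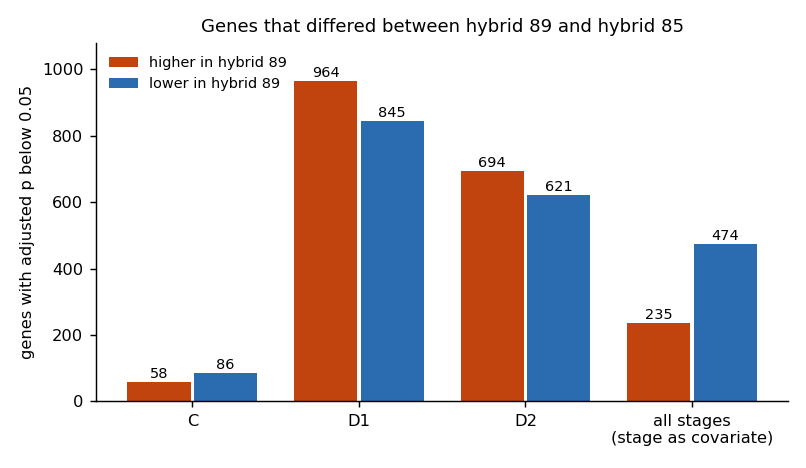
Number of genes (vertical axis) with limma adjusted p below 0.05 between hybrid 89 and hybrid 85 within C, D1 and D2 and over all stages. Left bars are genes higher in hybrid 89 and right bars genes lower in it; D1 and D2 hold more than C, and over all stages lower calls (474) outnumber higher ones (235).

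Differences seen in watered plants were mostly found again in other plants under moderate drought. The 3 stages share no plants, so a list called in one can be looked up in another, although the spread was pooled over all of them. Of the 144 genes called in C, 137 (95.1%) had the same sign in D1, against 50.4% of all genes tested. The call and direction were shared with D1 by 100 genes, which is 69.4% of the C list and 5.53% of the D1 list, and 1 gene was called the other way. In D2, 113 of the 144 (78.5%) had the same sign, against 48.4% of all genes. There 48 were called in the same direction, 33.3% of the C list and 3.65% of the D2 list, and 5 in the opposite one. The median size of these 144 differences was 2.56 in C, where they were chosen, 2.06 in D1 and 0.75 in D2. When replicate 1 of hybrid 85 at C was left out, 66 of 88 genes (75%) kept the sign in D1, the lowest share over the 12 plants left out. For D2 the lowest was 146 of 208 (70.2%), without replicate 1 of hybrid 89 in D2.

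Lists called under drought were looked up in watered plants in the same way. Of 1809 genes called in D1, 71% had the same sign in C, and their median size was 2.00 in D1 and 0.37 in C. Of 1315 called in D2, 52.9% had the same sign in C, against 48.4% of all genes, with a median of 1.96 in D2 and 0.04 in C. When replicate 1 of hybrid 89 at D2 was left out, 268 genes were called in D2, and 67.2% of them had the same sign in C, against 46.6% of all genes. Between D1 and D2, 188 genes were called in the same direction, 10.4% of the D1 list and 14.3% of the D2 list, and 38 in opposite directions. Leaving out the same plant gave 96 and 10. Across all 24117 genes the differences correlated at r = 0.266 for C with D1, 0.213 for D1 with D2, and 0.0756 for C with D2, as a description over genes of the same 12 libraries. In 37 genes the hybrids differed in the same direction in all 3 stages, each by its own call, and 16 of these were higher and 21 lower in hybrid 89. There were 36 such genes in the fit that lacks that plant.

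**Figure D3:**
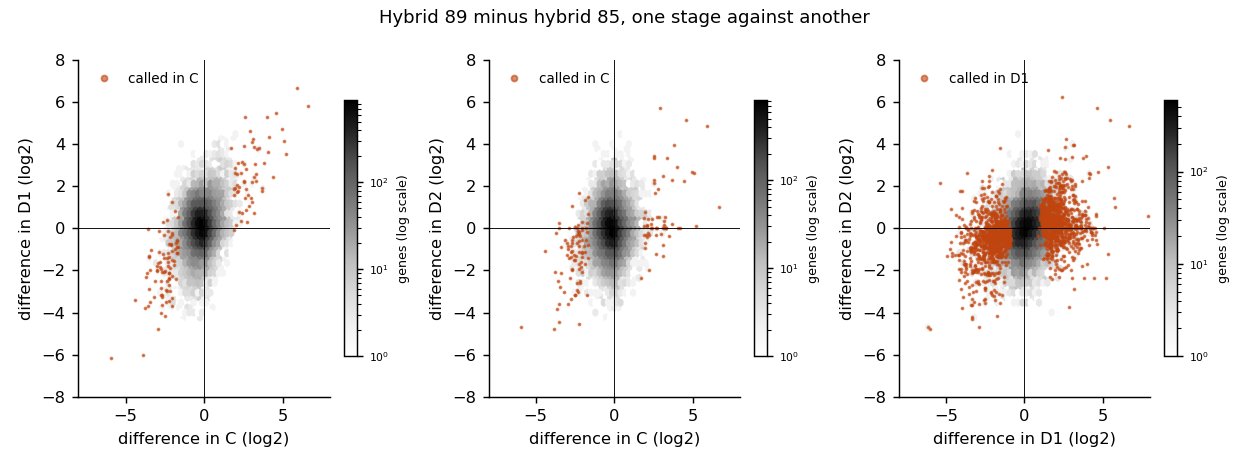
Difference between hybrid 89 and hybrid 85 (log2, hybrid 89 minus hybrid 85) in one stage on the horizontal axis and in another on the vertical axis, for C and D1 (left), C and D2 (middle) and D1 and D2 (right). Grey cells count all 24117 genes on a log scale and coloured points are genes called in the stage of the horizontal axis; most points called in C keep their sign in D1 (137 of 144).

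In D1, genes raised by severe drought were mostly lower, and genes lowered by it mostly higher, in hybrid 89 among those that differed. With no plant left out, the size of the change between D2 and C, over both hybrids, came from plants that do not enter the D1 difference. The calls of this change also used the D1 plants, through the shared spread and the filter, so the classes were not independent of D1. With a D1 plant left out, 5038 to 5111 genes were called higher and 4435 to 4523 lower in D2 than in C. Of 5219 genes higher in D2 than in C (21.6% of those tested), 103 had higher and 283 had lower levels in D1 plants of hybrid 89 than of hybrid 85. Of 4627 genes lower in D2 than in C (19.2%), 418 were higher and 110 lower in hybrid 89. Among the 14271 genes not called between D2 and C the counts were 443 and 452. The share called in D1 was 7.4% of the genes higher in D2, 11.4% of those lower in D2 and 6.27% of those not called. Over all genes it was 7.5%, so the genes higher in D2 were called about as often as any. The median D1 difference was -0.08 in the genes higher in D2, 0.28 in those lower in D2 and 0.11 over all genes. With quantile normalization the medians were -0.14, 0.21 and 0.01, with 108 higher and 288 lower in the first class and 408 and 155 in the other. With median-ratio scaling the counts were 79 and 304, and 409 and 148. The split thus had the same direction under all 3 scalings. With replicate 1 of hybrid 89 at D2 left out, drought raised 4741 and lowered 4074 genes between C and D2, and the counts were 174 and 392 in the first class and 472 and 161 in the other.

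The direction held when any D1 plant was left out, with fewer calls. With replicate 1 and then replicate 2 of hybrid 89 left out, the drought-lowered genes gave 111 and 187 higher against 27 and 43 lower, and with those of hybrid 85 left out they gave 91 and 140 against 12 and 60. The drought-raised genes gave 17 and 26 higher against 41 and 96 lower without the plants of hybrid 89, and 11 and 24 against 26 and 99 without those of hybrid 85. On the first principal component, which held 52.8% of the variance, the D1 plants lay at -63.9 and -51.9 in hybrid 89 and at -24.9 and -30 in hybrid 85. The D2 plants lay at 189.9 and 126.7 in hybrid 89 and at 115.3 and 99 in hybrid 85, and the C plants at -92.9 and -91.8 in hybrid 89 and at -77.3 and -98.2 in hybrid 85. In D1 the plants of hybrid 85 were thus nearer to the D2 plants, while in D2 the plants of hybrid 89 were farther from C. How far each plant had dried was not among the labels used here, and its part in these differences was not tested.

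In the other stages the hybrid difference was set beside drought effects from other plants in the same way. Here too the drought calls shared the spread and the filter with the plants of the stage looked at. In C, of 3821 genes higher in D2 than in D1 (15.8%), 1 was higher and 9 lower in hybrid 89, and of 4390 lower in D2 (18.2%), 21 were higher and 19 lower. The called genes are 0.262% and 0.911% of these classes. Over all genes in C, 58 were higher and 86 lower, or 0.597%. The fit that lacks replicate 1 of hybrid 89 at D2 gave 7 and 13 in the first class and 12 and 34 in the other. In D2, of 758 genes higher in D1 than in C (3.14%), 22 were higher and 13 lower in hybrid 89, and of 584 lower in D1 (2.42%), 11 were higher and 21 lower. These are 4.62% and 5.48% of the classes, against 5.45% of all genes. In the fit that lacks replicate 1 of hybrid 89 at D2 few genes of either class were called. The direction in the first class did not hold there, so no direction is read from these counts. The 709 genes that differed over all stages were called between D2 and C in 302 cases (42.6%), near the 40.8% of all genes. They were called between D1 and C in 69 cases (9.73%), against 5.56% of all genes, and between D2 and D1 in 286 cases (40.3%), against 34%. When replicate 1 of hybrid 89 at D2 was left out, 292 of 700 (41.7%) were called between D2 and C, against 37.3% of all genes. Between D2 and D1, 261 (37.3%) were called, against 29.6%, and between D1 and C 90 were. In that fit 1191 of all 23635 genes tested were higher and 939 lower in D1 than in C, more than the 758 and 584 with all plants. Of the 235 genes higher in hybrid 89, 55 were raised and 57 lowered in D2 relative to C. Of the 474 lower in hybrid 89, 106 were raised and 84 lowered. Over all genes tested, 21.6% were raised and 19.2% lowered, and no departure from these shares was tested.

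For some genes the hybrids changed places between stages. A dependence of the hybrid difference on stage was called in 336 genes (limma F test over both interaction terms, adjusted p below 0.05), 1.39% of those tested. The hybrid difference was largest in D1 for 161 of them, in D2 for 142 and in C for 33. It was of opposite sign in 2 stages that were each called for 40 genes. These were counted among genes picked for a difference between stages, so the count describes them and gives no further test. Of the 336, 22 (6.55%) were also among the 709, against 2.94% of all genes tested. Taken pairwise, the difference between D2 and D1 was called in 495 genes (2.05%), between D2 and C in 113 (0.469%) and between D1 and C in 0, where 4042 genes had an unadjusted p below 0.05 (limma). Limma-voom on the recovered reads called 264, 71 and 0. With replicate 1 of hybrid 89 at D2 left out, limma called 227, 33 and 122, so the count of 0 between D1 and C did not hold in that fit.

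These counts too depended on single plants. With replicate 1 and then replicate 2 left out, the 336 became 215 and 3144 for D2 plants of hybrid 89, 53 and 17 for D2 plants of hybrid 85, 13 and 32 for D1 plants of hybrid 89, 33 and 39 for D1 plants of hybrid 85, and 102 and 53 for C plants of hybrid 89. It became 194 when replicate 2 of hybrid 85 at C was left out. In every one of the 12 fits 8 genes were called, and the 4 genes described next were called in all 23 alternative fits in which they were tested.

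Potri.018G098200.1 (chromosome number 18, 393 bp) had the smallest p of the table for dependence on stage. Hybrid 89 had 163.7 and 153.6 RPKM in C, 94.9 and 97.6 in D1, and 14.1 and 9.06 in D2. Hybrid 85 had 36.3 and 65.3 RPKM in C, 6.40 and 5.57 in D1, and 61.9 and 61.2 in D2. The gene was thus higher in hybrid 89 in C and D1 and lower in D2, with no overlap of plants in any stage. The differences were 1.68, 3.80 and -2.35 on the log2 scale, with an SE of 0.31 each (limma F test, adjusted p = 0.00228).

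Potri.001G221900.1 (chromosome number 1, 741 bp) fell under drought in both hybrids, but at different stages. Hybrid 89 had 335.9 and 289.7 RPKM in C, 287.5 and 183.8 in D1, and 1.72 and 1.72 in D2. Hybrid 85 had 44.6 and 55.1 RPKM in C, 7.63 and 2.95 in D1, and 4.18 and 6.75 in D2. The D1 plants of hybrid 89 thus lay above every plant of hybrid 85, and the D1 plants of hybrid 85 lay near its D2 plants. The differences were 2.63, 5.30 and -1.22, with an SE of 0.38 each (limma F test, adjusted p = 0.00449). The D2 difference was not called within its stage (limma, adjusted p = 0.089). It rested on 3 and 5 reads in hybrid 89 and 7 and 16 in hybrid 85.

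In the other two genes, the D2 plants of hybrid 89 had the highest values of all 12 plants. Potri.015G074500.1 (chromosome number 15, 537 bp) had 159.4 and 94.7 RPKM in the D2 plants of hybrid 89, against 9.06 and 6.98 RPKM in those of hybrid 85. In D1 it had 5.56 and 6.15 RPKM in hybrid 89 and 24.0 and 15.7 RPKM in hybrid 85. The differences were -0.96 in C, -1.58 in D1 and 3.79 in D2 (SE 0.33 each, limma F test, adjusted p = 0.00449).

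Potri.012G117100.1 (chromosome number 12, 1563 bp) reached 118.2 and 186.4 RPKM in D2 of hybrid 89, where hybrid 85 had 0 and 0.6 RPKM. In D1 it had 0.636 and 0.66 RPKM in hybrid 89 and 9.65 and 2.40 RPKM in hybrid 85. Its differences were 0.58 in C, -1.87 in D1 and 6.88 in D2 (SE 0.58 each, limma F test, adjusted p = 0.00814). Within stages only the D2 difference was called (limma, adjusted p = 0.783 in C, 0.079 in D1 and 0.000621 in D2). In both genes replicate 1 and replicate 2 of hybrid 89 in D2 were each more than 10 times above both plants of hybrid 85.

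**Figure D4:**
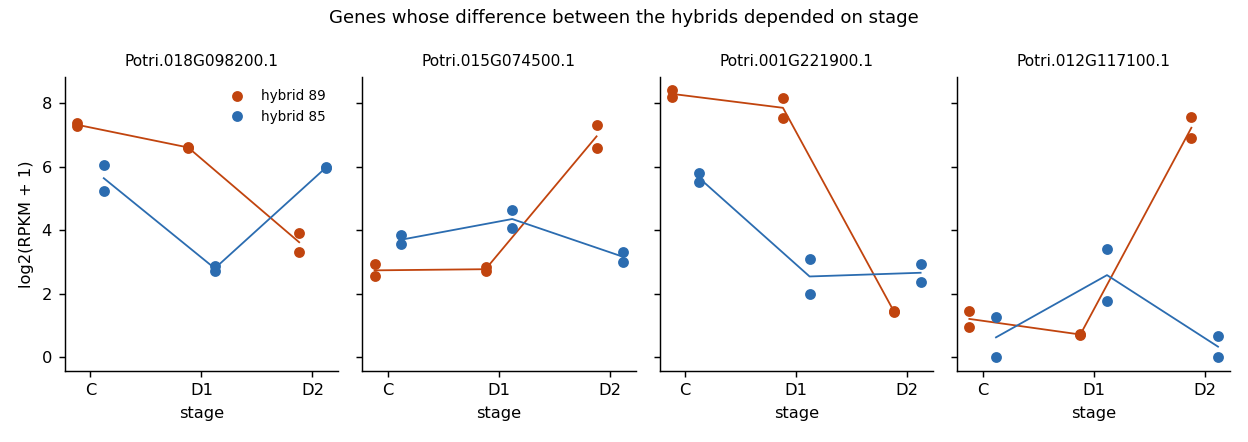
Levels of the 4 genes with the smallest p for a dependence of the hybrid difference on stage, as log2(RPKM + 1) on the vertical axis, by stage, with hybrid 89 left of hybrid 85 in each stage. Points are single plants and lines join the means of 2 plants. In each panel the lines of the hybrids cross. For Potri.001G221900.1 and Potri.012G117100.1 the crossing involves differences that were not called within their stage.

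Some of the genes that differed between the hybrids were neighbours. On the numbered chromosomes 647 of 23393 genes were called (2.77%). When a gene was called, the next tested gene in the order of the IDs was called in 59 cases, or 9.12%. The direction was the same in 51 of these 59 neighbouring pairs, with 13 pairs higher and 38 lower in hybrid 89. Lower calls were also the more frequent over all genes tested, at 474 against 235. The pairs with the same direction are to be read against this imbalance. Across all genes the difference of a gene and that of the next one correlated at r = 0.11 (23374 pairs), of the second next at 0.0642, and of the fifth next at 0.0076. For the change between D2 and C the same values were 0.129, 0.0636 and 0.0283. Neighbours can be near-identical copies whose reads are hard to assign, and the handling of such reads is not given in the sources used here.

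Windows of 20 tested genes with at least 5 called genes merged into 7 stretches on 4 chromosomes. Since the rule asks for called genes, their share in these windows is fixed by it and shows no clustering by itself. The windows hold 175 tested genes, of which 51 were called. Of the 51, 18 were higher and 33 lower in hybrid 89, a split near the 235 and 474 over all genes tested. The longest stretch lay on chromosome number 19, from its 569th to its 607th tested gene of 665. There 11 of 39 genes were called, 10 of them lower in hybrid 89, with a median difference of -2.02 and a range from -2.89 to 3.47. Within single stages, 7 genes of this stretch were called in C, 12 in D1 and 2 in D2. Over all genes tested the shares called were 0.597%, 7.5% and 5.45%, so the D2 count of 2 in 39 is near that of any genes. Whether the stretch differed between stages was not tested.

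On chromosome number 1, from the 2544th to the 2563rd tested gene of 2780, 7 of 20 genes were called and 6 of them were higher in hybrid 89, with a median of 1.57. A pair of stretches lay on chromosome number 12. From the 673rd to the 696th tested gene of 820, 6 of 8 called genes were lower, and from the 130th to the 149th, 3 of 5. On chromosome number 17 they ran from the 214th to the 234th and from the 515th to the 550th of 856 tested genes, with 5 of 6 and 6 of 9 called genes lower in hybrid 89. The last, on chromosome number 19 from the 23rd to the 37th tested gene, held 3 higher and 2 lower.

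**Figure D5:**
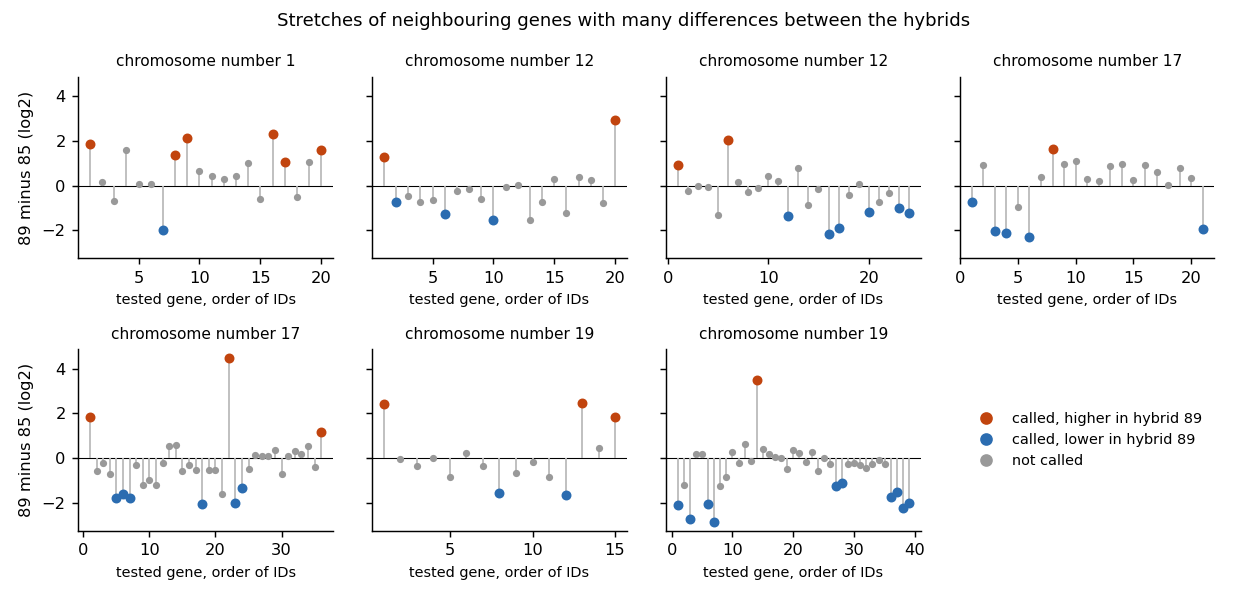
Difference between hybrid 89 and hybrid 85 (log2, vertical axis) for each tested gene in 7 stretches with many called genes, in the order of the gene IDs (horizontal axis). Coloured points are called genes, higher or lower in hybrid 89, and grey points are not called; on chromosome number 19 one stretch has 10 of 11 called genes lower in hybrid 89.

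The shares of called genes were uneven over chromosome numbers, and whether this differed between stages was not tested. The shares in C rest on 0 to 17 genes a chromosome. Chromosome number 19 held the highest share of numbered ones over all stages (5.56%) and in C (17 of 665 genes, 2.56%). In D1 it held 9.17%, with a range of 6.02% to 9.23% over the 19 numbers, while in D2 it held 4.51%, in a range of 4.34% to 7.05%. Genes with no chromosome number were called in 8.56% over all stages, 2.35% in C, 11.9% in D1 and 6.49% in D2. Chromosome number 9, with the lowest share over all stages (1.04%), held 0 called genes in C, 72 of 1060 (6.79%) in D1 and 48 (4.53%) in D2.

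No difference between the hybrids was detected in 2 values per library that describe the whole transcriptome. Genes at 1 RPKM or more numbered 21770.2 ± 782 in hybrid 89 and 21708.5 ± 851 in hybrid 85 (SD, n = 6 each, two-sided exact permutation of hybrids within stages, p = 0.861, adjusted p = 0.861 over 2 tests). The 100 highest genes held 33.9 ± 4.78% of the RPKM sum in hybrid 89 and 33.6 ± 2.38% in hybrid 85 (same exact permutation test, p = 0.852, adjusted p = 0.861). The smallest p this design allows is 0.00926. The stages went different ways: hybrid 89 had fewer genes at 1 RPKM than hybrid 85 in both C plants and more in both D1 and both D2 plants. Both C plants of hybrid 89 had a higher share in the 100 highest genes than those of hybrid 85, and both D1 plants a lower one.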

How the data were processed

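Leaf RNA of 12 plants was sequenced on an Illumina HiSeq2000 after TruSeq library preparation, per the labels. The authors deposited RPKM for each library, per the file headers. The submitters' processing notes list Trimmomatic 0.32, with no role. The aligner and counter, the genome build, the strand setting and the treatment of multiply mapped reads were not given in the sources used here, so overlapping genes, antisense partners and near-identical copies are uncertain. The 3 columns of stage means were not used.

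Reads, totals and coding lengths were recovered from the steps of the values: with a tolerance of 0.01 reads, 100.0% of the 41335 genes' values above 0 came out whole. At the median coding length of 1107 bp, 3 reads are 0.258 to 1.2 RPKM, a floor that covers counting error only. Plants of a group differed by more than sampling noise (chi-square per degree of freedom 5.29 to 34.2).

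Genes reaching 1 RPKM in 4 or more libraries were tested as log2(RPKM + 1) with limma 3.58.1 in R 4.3.3, with a trended variance and Benjamini-Hochberg adjustment over all 24117 genes. Differences are hybrid 89 minus hybrid 85 on this scale, which understates low genes. The fit over all stages had stage as a covariate, and within-stage and interaction tests used 6 group means. The residual of the fit over all stages thus also held the interaction of hybrid with stage. Recovered reads entered limma-voom, read counts per gene and the thinned alternative. The tests were tried on simulated data.

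The rule for named genes took the 10 largest rises and 10 largest falls among called genes with a mean of at least 5 RPKM and no overlap of the hybrids, the 5 called genes of highest mean, the 5 smallest p for stage dependence, genes of the chromosome windows, and up to 2 members of each gene list. Since IDs carry no names, 2 rises, 2 falls and 4 stage-dependent genes are printed by ID, the rest is summarised, and the lists were not used. The comparison, rules and lists were chosen with earlier results of these data known. Alternatives were other pseudocounts, filters, scalings, variance models and covariates, a replicate block, and each plant left out.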

Additional observations from a re-analysis of the deposited data

Results flagged for a closer look

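The hybrid difference depended on stage by the interaction test in 336 genes, and in the 4 genes described for it the adjusted p of limma's F test was 0.00228 (Potri.018G098200.1), 0.00449 (Potri.015G074500.1), 0.00449 (Potri.001G221900.1) and 0.00814 (Potri.012G117100.1). Of 12 sets of 6 values, 2 held a sample far from the others, with a gap that passed Dixon's 95% critical value as a share of the range. Potri.T100200.1 reached 4.84 RPKM in replicate 2 of hybrid 89 in D1, where the next value was 0.765 RPKM (ratio 0.842). Potri.010G155500.1 had its only read of hybrid 85 in replicate 1 of C, the deepest library (ratio 1). Chance alone marks about 1 in 20 sets of normally distributed values. Most values of these 2 sets were 0, so that rate does not hold for them. With a single value above 0 the ratio is 1 whatever its size.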

How the results depend on the processing

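The direction and call of the 4 genes with the largest differences held in all 28 alternatives each, with log2 differences of 5.36 to 8.33 for Potri.016G092500.1, 4.85 to 8.05 for Potri.010G155500.1, -7.99 to -5.20 for Potri.T100200.1 and -5.62 to -4.31 for Potri.015G112300.1. With each plant left out in turn, the count over all stages was 339 to 729, within C 23 to 208, within D1 248 to 2567, within D2 70 to 4068, and for stage dependence 13 to 3144. With a pseudocount of 0.1, 85 genes differed in C and 129 depended on stage. With a mean of at least 5 RPKM required, 373 genes differed over all stages, 68 in C and 1151 in D1, from 15663 tested. Library quality weights gave 1284 over all stages, 4126 in D1, 286 in D2 and 518 for stage dependence. Over all stages the count was 148 with no stage covariate, 37 against a log2 threshold of 1, and 79 from C and D2 alone, while C with D1 gave 652 and D1 with D2 gave 601, also from 8 plants each. Reads thinned to the shallowest library, an alternative chosen after seeing the data, gave 824 in D2 and 187 for stage dependence. With the replicate block, which uses up 3 more degrees of freedom, 241 genes differed over all stages, 239 of them among the 709, and 41 depended on stage. Deviations of plants with the same number correlated at 0.0754 in C, -0.0295 in D1 and 0.0482 in D2, so the numbers were not taken as pairs. The cause of the other shifts was not tested. The difference in genes per library was -68.5 with a threshold of 5 RPKM and -174.1 to 274.2 with a plant left out, and that in the share of the highest genes was -0.22 percentage points for 50 genes and -1.23 to 1.58 with a plant left out. With 2 plants a group and 2259634 to 10509089 reads a library, a call missed in a single stage does not show that the hybrids were alike there.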
